A study of Mus musculus with 4 samples.

Results

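The insulin-like growth factor (IGF) system is described here through 10 mouse genes, chosen by symbol from a fixed list, out of 55421 genes with a read count in each library. They are the ligand gene Igf1, the receptor genes Igf1r and Insr, the adaptor gene Irs2, and the binding protein genes Igfbp2, Igfbp3, Igfbp4, Igfbp5, Igfbp6 and Igfbp7. All 10 symbols were found. RNA was measured in 2 libraries of astrocytes infected with a lentivirus carrying a short hairpin RNA (shRNA) against Phf8, a histone demethylase gene, and in 2 libraries of astrocytes infected with a lentivirus carrying a control shRNA. Both groups were C57BL/6J cells obtained by differentiating neural stem cells in culture in DMEM/F-12 with N2 supplement, Glutamax and fetal bovine serum. The hairpin sequences and the number of cultures are not stated in the labels. The comparison asks how astrocyte transcripts respond to lower Phf8.

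IGF1 and IGF2 are secreted growth factors that act through the IGF1 receptor, a tyrosine kinase closely related to the insulin receptor. The activated receptors phosphorylate adaptors of the IRS family, which recruit PI3 kinase and start signalling through Akt and mTOR. Most of the IGF in tissue fluid is held by IGF binding proteins, which can keep the ligands from the receptor or carry them to it, and secreted proteases release the ligands by cutting the binding proteins. IGF1 is known to promote growth and survival of neurons and of oligodendrocyte lineage cells. N2 supplement contains insulin, so ligand for the insulin receptor was supplied to both groups by the medium.

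Total reads were 44724759 and 36839530 in Phf8 shRNA replicates 1 and 2, and 42245602 and 40472627 in control shRNA replicates 1 and 2. Levels are CPM, a gene's reads set against its library's total after TMM scaling (a correction for differences in library composition), and fold changes are Phf8 shRNA over control shRNA. The targeted gene Phf8 stood at 44.3 and 42.3 CPM in the Phf8 shRNA libraries, against 53.3 and 53.0 CPM in the control libraries, a log2 fold change of -0.30 ± 0.06 (SE). Of the 9 astrocyte markers listed, 9 were detected well above the low-count filter, and their summed level was 6667 and 5952 CPM in the Phf8 shRNA libraries, against 9571 and 9323 CPM in the control libraries. Of these markers 2 rose, 6 fell and 1 did not pass, beside 24.8% higher and 27.3% lower over all genes tested. Slc1a2, a glutamate transporter gene, rose to 968 and 982 CPM with Phf8 shRNA, against 136 and 135 CPM in the controls, and Gfap, an intermediate filament gene, fell to 1319 and 1024 CPM, against 4079 and 3863 CPM. Without Gfap the astrocyte markers summed to 5349 and 4928 CPM with Phf8 shRNA, against 5493 and 5460 CPM in the controls. The mitochondrial ribosomal RNAs took 27.8% and 28.2% of the Phf8 shRNA reads, against 21.2% and 22.5% of the control reads. The samples are described as biological replicates, with no word on separate cultures or infections. The p-values therefore measure the spread between these libraries only, which may be technical.

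Neighbouring genes of the family moved in opposite directions. Igfbp2 (ENSMUSG00000039323, 72824503 to 72852474, plus strand) and Igfbp5 (ENSMUSG00000026185, 72857932 to 72874884, minus strand) lie tail to tail on chromosome 1 of the mm10 build, with 5457 bases between their annotated ends. The sequences before the starts of these genes are shown because both sit in the same region and differed in direction, and that of Igfbp7 (ENSMUSG00000036256) because its fold change was close in size to that of Igfbp5. Each is the 250 bases before the RefSeq start on GRCm38.p6, the assembly of mm10, read 5′ to 3′ on the strand of the gene. Igfbp2 has a second RefSeq start, and the window shown is that of the first. They lie at chr1:72874866-72875115 on the minus strand (Igfbp5), chr1:72824230-72824479 on the plus strand (Igfbp2) and chr5:77408046-77408295 on the minus strand (Igfbp7). Capitals mark matches, on either strand, to TATAAA (the TATA box), its variant TATTTAA, the GC box core GGGCGG, the E-box CACGTG, the AP-1 letters TGANTCA or the FoxO letters TGTTTAC, and no matches of different motifs overlap here.
Igfbp5: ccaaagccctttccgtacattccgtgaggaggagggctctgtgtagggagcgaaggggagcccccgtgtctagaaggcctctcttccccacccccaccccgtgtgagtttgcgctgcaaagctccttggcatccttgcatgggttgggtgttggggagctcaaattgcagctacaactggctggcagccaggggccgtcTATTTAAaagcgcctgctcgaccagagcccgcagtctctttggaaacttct
Igfbp2: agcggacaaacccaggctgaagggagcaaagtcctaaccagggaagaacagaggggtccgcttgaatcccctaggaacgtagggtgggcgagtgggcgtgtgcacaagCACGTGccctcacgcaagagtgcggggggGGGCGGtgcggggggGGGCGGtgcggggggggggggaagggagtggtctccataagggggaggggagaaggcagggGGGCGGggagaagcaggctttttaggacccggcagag
Igfbp7: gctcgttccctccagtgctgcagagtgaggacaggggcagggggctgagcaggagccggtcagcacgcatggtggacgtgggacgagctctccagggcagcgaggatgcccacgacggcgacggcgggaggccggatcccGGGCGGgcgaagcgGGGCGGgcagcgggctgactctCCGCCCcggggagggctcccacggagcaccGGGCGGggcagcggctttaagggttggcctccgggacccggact

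The windows differ in their letters. The Igfbp5 window holds 10 CpG dinucleotides and 1 match to TATTTAA, at positions -51 to -45 from the RefSeq start. TATTTAA occurs in 4.18% of the 32851 promoter windows of the table, and this motif was added after the sequence had been read. The Igfbp2 window holds 14 CpG dinucleotides, 3 matches to GGGCGG and 1 to CACGTG, which is its own reverse complement. The Igfbp7 window holds 26 CpG dinucleotides and 4 matches to GGGCGG, 1 of them on the opposite strand. GGGCGG occurs in 32.7% of all windows and CACGTG in 6.02%, and the median window has 6 CpG dinucleotides. TATAAA, which occurs in 12.4% of all windows, had a match before Igfbp4 and Igfbp6 among the 9 members with a window in the table. That of Igfbp4 lies at -28 to -23 on the strand of the gene, and that of Igfbp6 at -148 to -143 on the opposite strand. TGANTCA occurs in 6.75% of all windows, and among members was found before Igf1 and before the second start of Igfbp2. TGTTTAC occurs in 3.17% and was found before none of these 9 genes.

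Binding protein transcripts were lower with Phf8 shRNA for most of the family. Igfbp5, Igfbp7, Igfbp3 and Igfbp4 fell, Igfbp2 rose, and Igfbp6 was too low to be tested. Of the 9 members that passed the low-count filter, 7 passed edgeR's quasi-likelihood test at a Benjamini-Hochberg adjusted p under 0.05, 2 higher and 5 lower, and their median log2 fold change was -0.59. Over all 21042 genes tested, 52.1% changed, 24.8% higher and 27.3% lower, with a median of 0.01. All 9 had groups that did not overlap in CPM, as did 73.9% of all genes tested.

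**Figure D1:**
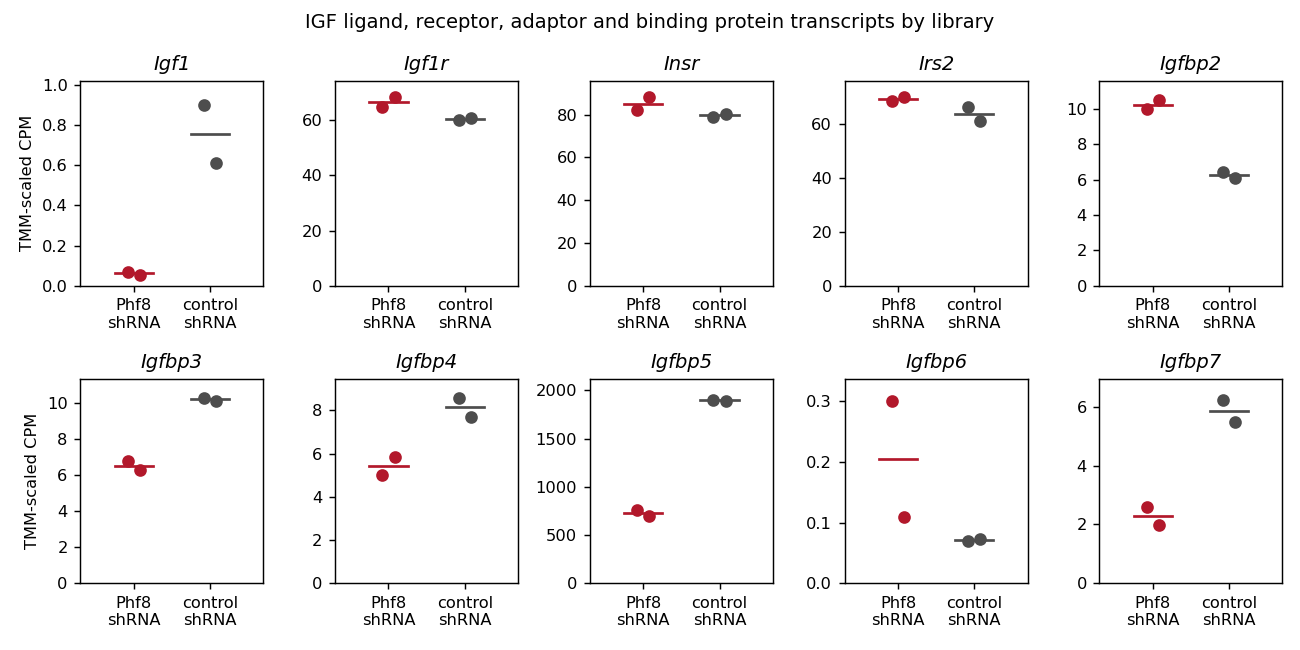
TMM-scaled CPM of each of the 10 genes by library, on axes that start at 0. Points are the 2 Phf8 shRNA libraries (red, left) and the 2 control shRNA libraries (grey, right), and lines are group means. Igfbp5 sits at 761 and 694 CPM with Phf8 shRNA, against 1903 and 1888 CPM in the controls, while the receptor genes differ little.

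Igfbp5, whose product binds IGFs and extracellular matrix, was by far the most abundant member. It had 761 and 694 CPM in the Phf8 shRNA libraries, from 32926 and 25486 reads, against 1903 and 1888 CPM in the control libraries, from 82330 and 77253 reads. Both Phf8 shRNA libraries lay far below both controls. The log2 fold change was -1.38 ± 0.06 (SE; 95% interval -1.51 to -1.25), or 2.60-fold lower (edgeR quasi-likelihood test, adjusted p = 5.09e-98). Of the 5740 genes that fell, 1204 fell by more. By level per kilobase of exon, Igfbp5 ranked 95 and 98 among 21014 genes in the Phf8 shRNA libraries, against 38 and 35 in the control libraries.

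Igfbp7 (chromosome 5, 77349240 to 77408041, minus strand) encodes a secreted relative with low affinity for IGFs that is abundant in blood vessels. Its level was 2.59 and 1.99 CPM in the Phf8 shRNA libraries, against 6.22 and 5.48 CPM in the controls. The groups lay far apart, beyond the spread within each. The log2 fold change was -1.34 ± 0.14 (SE), or 2.53-fold lower (edgeR quasi-likelihood test, adjusted p = 1.15e-19). An opposite-strand gene covers 7.03% of its exonic length, and whether the counting used strand is not stated in the labels. Of the 6 endothelial markers listed, Kdr, a VEGF receptor gene, fell to 0.439 and 0.490 CPM in the Phf8 shRNA libraries, against 4.48 and 4.50 CPM in the control libraries. The other 3 that were tested did not pass, and without Kdr the list summed to 1.11 and 1.01 CPM with Phf8 shRNA, against 0.948 and 1.05 CPM in the controls. The defining endothelial genes Cdh5 and Cldn5 had at most 1 read over all 4 libraries. The 5 mural markers summed to 69.8 and 74.7 CPM with Phf8 shRNA, against 70.2 and 65.2 CPM in the controls. Of them 1 rose, 3 fell and 1 did not pass, beside 24.8% higher and 27.3% lower over all genes tested. Cspg4, which did not pass, and Pdgfrb, which rose 2.51-fold, made up most of the summed mural level. Without Cspg4 it was 24.7 and 25.1 CPM with Phf8 shRNA, against 22.7 and 22.5 CPM in the controls. The near-equal sums therefore say little about the 3 mural markers that fell. Acta2 fell 20.6-fold to 0.301 and 0.572 CPM, against 9.32 and 8.31 CPM. Kcnj8 fell 29.6-fold, from 68 and 64 reads to 0 and 4, and Rgs5 fell 5.18-fold. The part of these markers in the result was not tested. In bulk RNA, fewer cells of a type and less RNA per cell cannot be told apart.

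Igfbp3 and Igfbp4 fell by smaller amounts. Igfbp3 (ENSMUSG00000020427; chromosome 11, 7206086 to 7213923, minus strand) encodes the main carrier of IGFs in blood, where it forms a complex with the acid-labile subunit. It stood at 6.78 and 6.27 CPM in the Phf8 shRNA libraries, against 10.3 and 10.1 CPM in the control libraries, a log2 fold change of -0.64 ± 0.10 (SE; edgeR quasi-likelihood test, adjusted p = 6.75e-10). The product of Igfbp4 (ENSMUSG00000017493; chromosome 11, 99041244 to 99054392, plus strand) is known to hold IGFs away from the receptor until it is cut by the protease PAPP-A. Igfbp4 stood at 5.02 and 5.86 CPM in the Phf8 shRNA libraries, against 8.58 and 7.68 CPM in the control libraries, a log2 fold change of -0.59 ± 0.11 (SE; adjusted p = 3.66e-07, same test). Each group's libraries stayed apart from the other group's for both genes. Both changes were near the median size of all called genes, 0.58 on the log2 scale.

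Igfbp2 was the binding protein gene that rose. Its product is secreted by astrocytes and choroid plexus and can also bind integrins. The level was 9.99 and 10.5 CPM in the Phf8 shRNA libraries, against 6.40 and 6.06 CPM in the control libraries. Both Phf8 shRNA libraries were above both controls, by 1.64-fold in the fit (log2 fold change 0.71 ± 0.10 SE, adjusted p = 8.75e-12, edgeR's quasi-likelihood test). Within 500 kb of the midpoint between Igfbp2 and Igfbp5, 5 of 14 other listed genes were tested, of which 1 rose and 3 fell, against 24.8% higher and 27.3% lower over all genes tested.

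Igfbp6 (ENSMUSG00000023046; chromosome 15, 102144362 to 102149511, plus strand), whose product prefers IGF2, was near the limit of detection. It had 13 and 4 reads in the Phf8 shRNA libraries, against 3 and 3 in the controls, and did not pass the low-count filter. The depth-adjusted ratio of reads was 2.98 (95% exact binomial interval 1.12 to 9.24, counting error only). Most of its reads came from Phf8 shRNA replicate 1, and with no low-count filter its log2 fold change was 1.52 ± 0.72 (SE; edgeR quasi-likelihood test, adjusted p = 0.102).

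Because Igfbp5 was so abundant, it set the summed binding protein level. Per kilobase of exon, a scale on which genes can be compared, the 6 binding protein genes summed to 138 and 126 CPM in the Phf8 shRNA libraries, against 331 and 327 CPM in the control libraries, a 2.49-fold lower mean. Igfbp5 made up 91.9% and 91.5% of that sum in the Phf8 shRNA libraries, against 95.8% and 96.1% in the controls. The other 5 genes together came to 11.1 and 10.7 CPM per kilobase with Phf8 shRNA, against 13.9 and 12.8 CPM per kilobase with control shRNA. Within those 5, Igfbp2 supplied 48.6% and 52.8% of the summed level in the Phf8 shRNA libraries, against 24.9% and 25.5% in the control libraries. Igfbp5 exceeded Igfbp2 on this scale by 23.4-fold and 20.4-fold in the Phf8 shRNA libraries, against 91.4-fold and 95.8-fold in the control libraries. Exonic lengths are the union over all annotated transcripts of a gene, so a gene that uses short isoforms is placed too low.

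**Figure D2:**
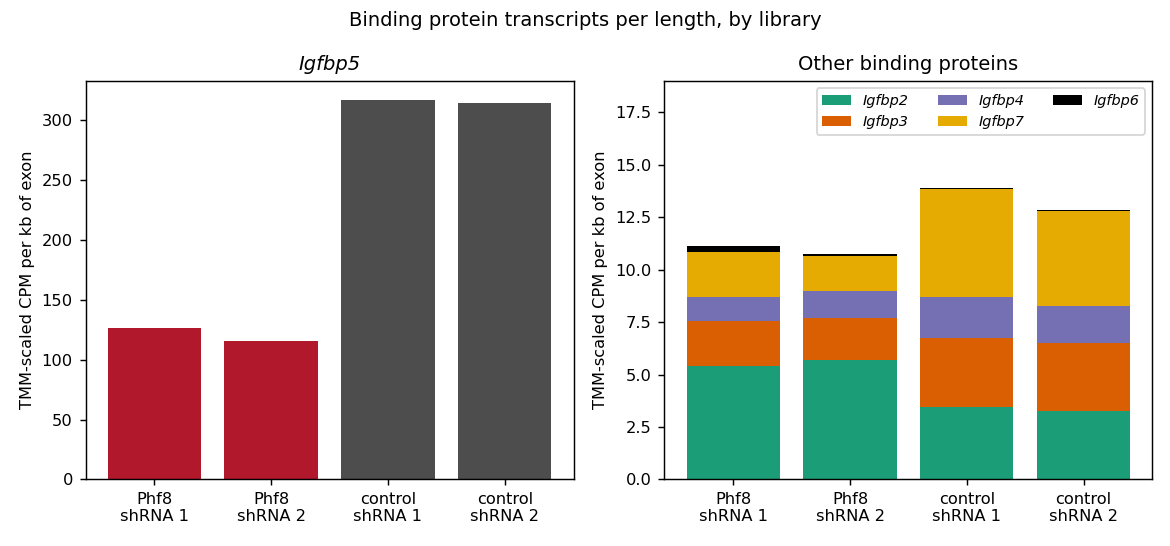
TMM-scaled CPM per kilobase of exon in each library for Igfbp5 (left panel) and for the other 5 binding protein genes stacked (right panel, a smaller scale), with Phf8 shRNA libraries left of the control libraries. Igfbp5 makes up over 91% of the summed level in every library, and Igfbp2 is the largest part of the rest with Phf8 shRNA.

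The order of levels per kilobase changed below Igfbp5. In the Phf8 shRNA libraries it ran Igfbp5 (121 ± 7.91 CPM per kilobase, mean ± SD, n = 2), Igfbp2 (5.54 ± 0.190), Igfbp3 (2.08 ± 0.115), Igfbp7 (1.89 ± 0.352), Igfbp4 (1.23 ± 0.134) and Igfbp6 (0.184 ± 0.122). In the control libraries it ran Igfbp5 (316 ± 1.73), Igfbp7 (4.84 ± 0.434), Igfbp2 (3.37 ± 0.131), Igfbp3 (3.26 ± 0.0376), Igfbp4 (1.84 ± 0.144) and Igfbp6 (0.0642 ± 0.00253). Igfbp3 and Igfbp7 with Phf8 shRNA, and Igfbp2 and Igfbp3 in the controls, did not differ beyond the spread of their libraries.

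The ligand gene Igf1 (ENSMUSG00000020053; chromosome 10, 87858265 to 87937042, plus strand) was at a very low level in both groups and lower with Phf8 shRNA. It had 3 and 2 reads in the Phf8 shRNA libraries, against 39 and 25 reads in the control libraries, or 0.069 and 0.054 CPM against 0.902 and 0.611 CPM. The depth-adjusted ratio of reads was 12.2-fold lower with Phf8 shRNA (95% exact binomial interval 4.95 to 38.7, counting error only). The fitted log2 fold change was -3.54 ± 0.51 (SE), with an adjusted p of 2.62e-11 (edgeR quasi-likelihood test), and 2.96% of the genes that fell had a larger change. Igf1 passed the low-count filter through the control libraries. Microglia, a known source of Igf1 in brain, were represented by 7 markers that summed to 6.01 and 6.18 CPM with Phf8 shRNA, against 8.46 and 8.87 CPM in the controls. Without Cd68 they summed to 3.40 and 3.81 CPM with Phf8 shRNA, against 3.21 and 3.03 CPM in the controls. Of these markers Cd68 fell and the other 3 that were tested did not pass. P2ry12, among those 3, had 2.84 and 2.78 CPM with Phf8 shRNA, against 2.38 and 2.52 CPM in the controls. Cx3cr1 had 0 to 6 reads in a library, and Itgam and Tyrobp had at most 2 reads over all libraries. Other annotation on the same strand covers 68.7% of the exonic length of Itgam, so its level is uncertain. The part of the microglial markers in the result was not tested.

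The receptor and adaptor genes differed little. Igf1r (ENSMUSG00000005533; chromosome 7, 67952827 to 68233668, plus strand), the IGF1 receptor gene, had 64.8 and 68.3 CPM in the Phf8 shRNA libraries, against 60.2 and 60.8 CPM in the control libraries. Its log2 fold change of 0.14 ± 0.06 (SE; 95% interval 0.02 to 0.25) passed narrowly, at an adjusted p of 0.0335 (edgeR quasi-likelihood test). It was called in 6 of 13 alternatives. Among the 5225 genes that rose, 99.0% rose by more.

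Insr (ENSMUSG00000005534; chromosome 8, 3122061 to 3279617, minus strand), the insulin receptor gene, had 82.1 and 88.1 CPM in the Phf8 shRNA libraries, against 78.9 and 80.4 CPM in the control libraries. Its log2 fold change of 0.10 ± 0.06 (SE) did not pass, with an adjusted p of 0.144 in the same test and a 95% interval of -0.01 to 0.21. Irs2 (ENSMUSG00000038894; chromosome 8, 10984681 to 11008458, minus strand), whose product couples both receptors to PI3 kinase, had 68.5 and 69.8 CPM in the Phf8 shRNA libraries, against 66.3 and 60.9 CPM in the control libraries. It did not pass either, at 0.12 ± 0.06 (SE), an adjusted p of 0.0633 and an interval of 0.01 to 0.23, which is not adjusted for the number of genes. Larger increases in transcript level than a factor of 1.19 for Igf1r, 1.15 for Insr and 1.17 for Irs2 lie outside these intervals. Those bounds hold only for TMM scaling and the spread between these libraries. Upper-quartile scaling gave log2 fold changes of 0.22, 0.18 and 0.20 (SE 0.05 each) for Igf1r, Insr and Irs2. With the replicate spread fixed at a coefficient of variation of 0.2, the SE of each was 0.29. Insr exceeded Igf1r per kilobase of exon by 1.55-fold and 1.58-fold in the Phf8 shRNA libraries, against 1.60-fold and 1.61-fold in the controls.

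**Figure D3:**
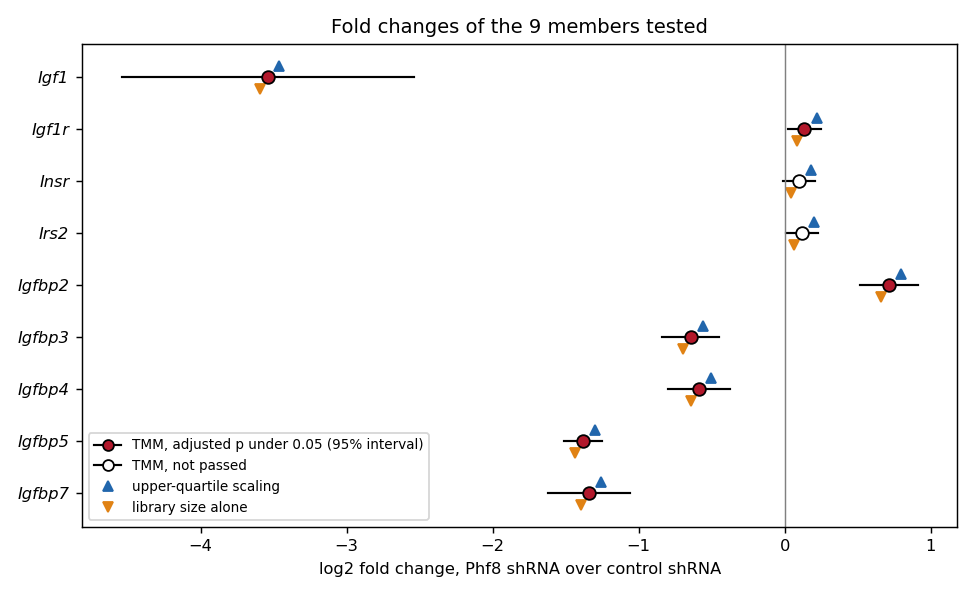
Log2 fold change, Phf8 shRNA over control shRNA, of the 9 tested members. Circles are the fit with TMM scaling, filled where the adjusted p was under 0.05, lines are 95% intervals, and triangles are the same fit under upper-quartile scaling (up) and library size alone (down). Igf1 and 4 binding protein genes lie well below 0 under each scaling, Igfbp2 lies above 0, and the receptor and adaptor genes lie within about 0.2 of 0.

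The direction of each tested member was the same under each scaling. The choice of scaling moved the median of all genes between -0.04 with library size alone and 0.10 with the upper quartile, which is similar in size to the changes of Igf1r, Insr and Irs2. Higher genes made up 47.7% of all calls with TMM, 58.0% with the upper quartile and 40.3% with library size alone. When the spread between replicates was set to a biological coefficient of variation of 0.2, against the 3.64% estimated from these libraries, Igf1, Igfbp5 and Igfbp7 kept their calls. Under that setting 15.7% of all genes changed (6.00% higher and 9.71% lower), 0 members rose and 3 fell, and Igfbp2, Igfbp3, Igfbp4 and Igf1r no longer passed (adjusted p = 0.0925, 0.146, 0.218 and 0.881, edgeR's likelihood ratio test).

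The other genes of the pathway were taken from a list of 53, of which 47 were tested. Of these, 23 rose, 11 fell and 13 did not pass, with a median log2 fold change of 0.15. Over all genes tested 24.8% rose and 27.3% fell, with a median of 0.01. Without control shRNA replicate 2 the number that rose was 15. At a coefficient of variation of 0.2 it was 4, and 4 fell, beside 6.00% higher and 9.71% lower over all genes. The called genes Irs1, Foxo1 and Pappa did not pass under that setting (adjusted p = 0.162, 0.216 and 0.273, edgeR's likelihood ratio test), and neither did the targeted gene Phf8 (adjusted p = 0.639).

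Among ligands and receptors outside the 10 genes, Igf2 had 0 and 0 reads in the Phf8 shRNA libraries, against 0 and 1 in the control libraries. Other annotation on the same strand covers 62.8% of the exonic length of Igf2. How reads shared by overlapping genes were counted is not stated in the labels, so the level of Igf2 is uncertain. The insulin genes Ins1 and Ins2, named after their values had been seen, had 0 reads in all 4 libraries. Igf2r, whose product clears IGF2 and carries lysosomal enzymes, fell to 46.3 and 45.2 CPM in the Phf8 shRNA libraries, against 93.1 and 87.7 CPM in the control libraries. The log2 fold change of Igf2r was -0.98 ± 0.06 (SE, adjusted p = 4.97e-64, edgeR's quasi-likelihood test). Of the binding protein relatives, Igfbp1 had 0 reads in all libraries. Igfbpl1, which encodes an IGF binding protein-like protein, fell 2.76-fold to 6.52 and 7.11 CPM in the Phf8 shRNA libraries, against 19.4 and 18.1 CPM in the control libraries (adjusted p = 2.72e-59, same test).

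Proteases of the binding proteins went both ways. Htra1, a secreted serine protease known to cut IGFBP5 and matrix proteins, rose 3.69-fold to 16.3 and 17.7 CPM in the Phf8 shRNA libraries, against 4.46 and 4.74 CPM in the control libraries (adjusted p = 3.1e-82, edgeR's quasi-likelihood test). Pappa, the gene of PAPP-A, fell to 0.879 and 1.09 CPM with Phf8 shRNA, against 1.64 and 1.39 CPM in the controls (log2 fold change -0.64 ± 0.24 SE, adjusted p = 0.0156, same test). Adam12, a metalloprotease that cuts IGFBP3 and IGFBP5, fell to 11.2 and 12.5 CPM with Phf8 shRNA, against 21.7 and 20.3 CPM with control shRNA (adjusted p = 9.13e-25, same test). The stanniocalcin genes Stc1 and Stc2, inhibitors of PAPP-A, did not pass. Pappa, Adam12, Stc1 and Stc2 were named after their values had been seen.

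Downstream of the receptors, 3 of 7 adaptors rose and 2 fell, beside 24.8% higher and 27.3% lower over all genes tested. Irs1, the adaptor most like Irs2, fell to 35.6 and 35.1 CPM in the Phf8 shRNA libraries, against 54.6 and 53.3 CPM in the control libraries (log2 fold change -0.61 ± 0.06 SE, adjusted p = 1.7e-23, edgeR's quasi-likelihood test). An opposite-strand gene covers 30.9% of its exonic length, and with no word on strand in the counting its level is uncertain. Grb14, an inhibitor of the insulin receptor kinase, fell 2.47-fold to 5.83 and 4.74 CPM with Phf8 shRNA, against 13.4 and 12.8 CPM with control shRNA (adjusted p = 3.45e-38, same test). Over the 8 signal inhibitors, 4 rose and 3 fell, beside the same shares over all genes. Grb10, among those that rose, went up 1.66-fold to 8.90 and 8.39 CPM with Phf8 shRNA, against 4.95 and 5.48 CPM with control shRNA. Trib3 rose 3.31-fold to 0.948 and 0.872 CPM with Phf8 shRNA, against 0.301 and 0.244 CPM with control shRNA. Grb10 and Trib3 were named after their values had been seen.

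Among 10 genes of PI3 kinase and Akt, 6 rose and 1 fell, with a median log2 fold change of 0.15. Over all genes 24.8% rose and 27.3% fell, with a median of 0.01. With library size alone 4 of these 10 rose and 2 fell, and with upper-quartile scaling 7 rose and 1 fell. Higher genes made up 40.3% of all calls with library size alone and 58.0% with the upper quartile, against 47.7% with TMM. A change in count between scalings is therefore not specific to these genes. At a coefficient of variation of 0.2, where 6.00% of all genes rose, 1 of these 10 rose and 0 fell. Pik3r1, the main regulatory subunit of PI3 kinase, named after its value had been seen, rose 2.00-fold to 595 and 594 CPM in the Phf8 shRNA libraries, against 298 and 298 CPM in the control libraries (adjusted p = 7.15e-62, edgeR's quasi-likelihood test). Of 10 genes of mTOR and GSK3, 9 rose and 0 fell, with a median of 0.17. The number that rose was 7 with library size alone, 10 with upper-quartile scaling and 1 at a coefficient of variation of 0.2. This list was set by pathway and not by direction of action. Its genes that rose include Tsc1 (0.44), Tsc2 (0.18), Gsk3a (0.17) and Gsk3b (0.29), so the count gives no direction of signalling. Eif4ebp1, a repressor of translation that mTOR inactivates, named after its value had been seen, had the highest change there, at 0.96 ± 0.15 (SE). Of 4 FoxO genes, Foxo1, named after its value had been seen, fell to 16.5 and 15.0 CPM with Phf8 shRNA, against 22.4 and 24.3 CPM with control shRNA (adjusted p = 2.12e-13, edgeR's quasi-likelihood test), and the others did not pass.

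**Figure D4:**
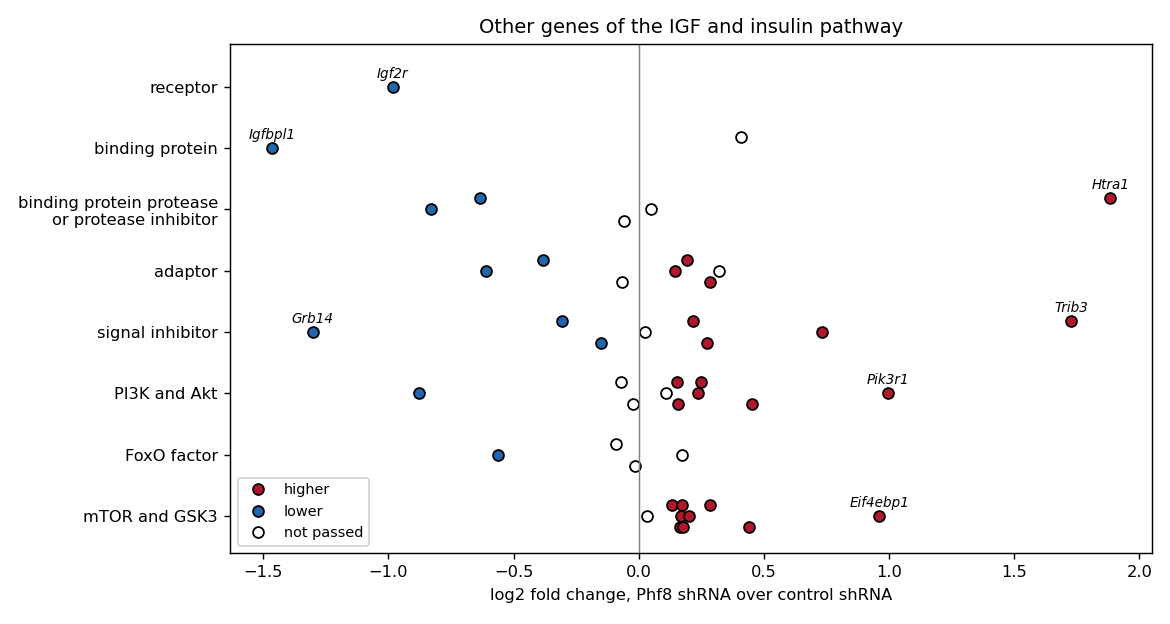
Log2 fold change, Phf8 shRNA over control shRNA, of the 47 tested genes of the pathway outside the 10 members, by role. Each point is a gene, red where it rose, blue where it fell and white where it did not pass, and names are given beyond 0.9 in either direction. Igfbpl1, Grb14 and Igf2r lie furthest below 0, Htra1 furthest above, and the mTOR and GSK3 genes lie within 0.5 of 0 apart from Eif4ebp1.

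Marker lists of other cell types are given for comparison with these values. Their counts stand beside 24.8% higher and 27.3% lower over all genes tested. Oligodendrocyte lineage markers, 7 of 7 of which rose, summed to 714 and 671 CPM in the Phf8 shRNA libraries, against 277 and 257 CPM in the control libraries. The 6 neuronal markers summed to 223 and 232 CPM with Phf8 shRNA, against 102 and 101 CPM with control shRNA. Of these 3 rose, 1 did not pass and 2 were too low to be tested. Syt1 and Gad1 made up most of the sum. Without Syt1 it was 122 and 126 CPM with Phf8 shRNA, against 56.9 and 56.4 CPM with control shRNA. Fibroblasts are a known source of binding proteins, and of the 6 fibroblast and meningeal markers Dcn, Lum and Col1a2 had at most 2 reads each over all libraries. Col1a1 had 16 reads with Phf8 shRNA, against 26 with control shRNA, and Col3a1 had 7, against 23. Pdgfra, which oligodendrocyte precursors also express, rose to 186 and 188 CPM with Phf8 shRNA, against 157 and 154 CPM with control shRNA. The part of these cell types in the changes above was not tested.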

How the data were processed

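RNA-seq of 2 Phf8 shRNA and 2 control shRNA libraries was analysed from 1 count file per library. Stranded libraries were prepared from ribosomal RNA-depleted total RNA, per the labels' protocols. HISAT2, HTSeq and DESeq2 with the mm10 build are named in the submitters' processing notes, without versions or settings, and neither the strand setting nor the annotation release is stated. The deposited values are raw read counts per gene, whole numbers with different totals per library (36839530 to 44724759). Identifiers were paired with symbols for 55154 of 55421 genes, and GENCODE M21 gave exonic lengths and overlaps.

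The test was edgeR 4.0.16's quasi-likelihood F test (R 4.3.3) on all 4 libraries, two-sided, without covariates, with filterByExpr, TMM scaling and Benjamini-Hochberg adjustment over all genes tested. Genes with an adjusted p under 0.05 were called. Standard errors were the absolute log2 fold change divided by the root of F. The fit was tested on simulated counts. The libraries of a group differed by more than sampling noise (chi-square per degree of freedom 2.88 for Phf8 shRNA and 3.18 for control shRNA) and each was counted as 1 sample. Since 52.1% of genes were called, how many rise or fall depends on the scaling.

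Alternatives were DESeq2 1.42.0's size factors, library size alone and upper-quartile scaling, DESeq2's Wald test, no or a stricter filter on low counts, a replicate block, each library left out in turn, mitochondrial genes and the 20 genes with most reads left out, and a fixed coefficient of variation of 0.2. The members, gene lists, marker lists and tests were chosen with earlier results of these data known. The genes named were the 10 members, Phf8, the pathway genes called with an absolute log2 fold change of at least 1 and a mean of at least 2 CPM in 1 group, and Igf2, Igf2r, Irs1, Igfbp1 and Igfbpl1. Genes outside this rule, and the markers given singly, were named after their values were seen. Promoter sequences are RefSeq's, on GRCm38.p6.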

Additional observations from a re-analysis of the deposited data

How the results depend on the processing

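Each tested member kept its direction under every alternative that could be computed, and Igfbp5 and Igfbp7 kept their calls in all 13, with log2 fold changes of -1.45 to -1.30 and -1.55 to -1.17. Igf1 was called in all 12 alternatives in which it was tested (it does not pass a filter of 10 reads in every library). Apart from the run with no low-count filter, it was tested because of its reads in the control libraries. All 12 rest on the same 69 reads or part of them, so they are not separate evidence. The number of genes called was 10965 and 3305 at a fixed coefficient of variation of 0.2. The number of members that rose was 2 and became 1 with library size alone, DESeq2's Wald test or no low-count filter, 4 with upper-quartile scaling and 0 at the fixed coefficient, where 3 fell in place of 5. Leaving out 1 library gave 1 to 3 members that rose and 15 to 22 pathway genes that rose, with 15 without control shRNA replicate 2. At the fixed coefficient 4 pathway genes rose and 4 fell.

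Igf1r lost its call with library size alone (0.084, adjusted p = 0.167), DESeq2's Wald test (0.13, 0.109), no low-count filter (0.12, 0.08) and the fixed coefficient (0.14, 0.881), and when 1 library was left out (0.10 to 0.15), except Phf8 shRNA replicate 1 (0.18, still called). Insr and Irs2 were called with upper-quartile scaling (0.18 and 0.20), Insr also without Phf8 shRNA replicate 1 (0.15, in a range of 0.049 to 0.15) and Irs2 without control shRNA replicate 1 (0.17, in a range of 0.064 to 0.17). At the fixed coefficient the values of Igfbp2, Igfbp3 and Igfbp4 were 0.72, -0.65 and -0.58 and did not pass. The cause was not tested, apart from the wider spread that the fixed coefficient imposes. With the replicate number as a block, 10929 genes were called and the block changed no call of a member. Libraries with the same number did not deviate together (correlation -0.001), and the labels do not say that the numbers pair the samples. Without Phf8 shRNA replicate 2, Igfbp6 passed the filter through the 13 reads of Phf8 shRNA replicate 1, against 6 control reads (log2 fold change 2.04). It also passed the filter without control shRNA replicate 1 (1.48) or 2 (1.57). Each of these fits leaves 1 library in a group and rests on the library where Igfbp6 was highest. They therefore cannot decide whether Igfbp6 changed. Depth limits Igf1 and Igfbp6, which rest on 69 and 23 reads in all.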
